A study of Mus musculus with 8 samples.

Results

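The genes described here are 10 genes of the smooth muscle contractile programme: Myh11, Acta2, Actg2, Tagln, Cnn1, Smtn, Lmod1, Des, Synpo2 and Myocd. They were taken by gene symbol from the array annotation, which gave them 31 of the 31465 named features, and the feature with the highest mean over all 8 arrays stood for each gene. All 10 passed the filter on dim features and were among 17234 tested genes. The study profiled lungs of newborn C57Bl/6J mice on 1-colour Agilent arrays, with 4 arrays labelled Fgf10+/- and 4 labelled wild-type. Pups of both groups were kept in 85% oxygen between postnatal days 0 and 3, and no group kept in room air was analysed here. The titles of the Fgf10+/- group read TG, and neither the allele nor the promoter behind that name is given in the sources used here. Values are log2 intensities, so a difference of -1 means 1 group at 50% of the other, and every difference is arrays labelled Fgf10+/- minus wild-type arrays. The labels do not say which litters the pups came from, so the p-values speak only of the spread among these 8 arrays.

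Smooth muscle in the newborn lung surrounds airways and arteries. Its contraction rests on myosin pulling on actin filaments, with calponin, smoothelin and leiomodin bound to the thin filament and desmin holding the filaments in place. The genes of this machinery share a control: serum response factor (Srf) binds CArG boxes near them, and myocardin (Myocd) is the cofactor that makes Srf act on muscle genes. Several of the genes are not exclusive to smooth muscle, since Acta2, Tagln and Cnn1 are also made by myofibroblasts and Des and Myocd by heart muscle.

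The CArG box can be looked for in the promoter windows of RefSeq (build GRCm38.p6), which run from 250 bases before to 50 bases after an annotated gene start. A window was found for 6 of the 10 genes, namely Acta2, Cnn1, Des, Lmod1, Synpo2 and Smtn. An exact CArG box, a pattern that is the same on both strands, was in 0 of these 6 and in 1.63% of all 32851 windows. With 1 G or C allowed among the core bases, Acta2 had a pair of matches and the other 5 genes had none, against 9.98% of all windows with at least 1 exact or such match. The 250 bases before the annotated Acta2 start are shown because they hold both matches, in capitals, which begin 84 and 34 bases before the start. They lie at chr19:34255374-34255623 on the minus strand and read 5′ to 3′.
Acta2: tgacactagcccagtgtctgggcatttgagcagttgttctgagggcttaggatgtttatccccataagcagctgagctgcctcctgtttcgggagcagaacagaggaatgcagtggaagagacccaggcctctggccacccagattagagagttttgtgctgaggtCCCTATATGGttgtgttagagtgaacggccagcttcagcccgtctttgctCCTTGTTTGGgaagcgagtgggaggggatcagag

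Exact boxes were found among related genes, of which 7 of 49 with a window had at least 1. Stretches around these boxes are shown for Srf itself, for the myosin light chain gene Myl9, for vinculin (Vcl) and for cytoplasmic gamma-actin (Actg1), with the boxes in capitals. The first lies at chr17:46556195-46556264 on the minus strand, the second at chr2:156775283-156775332 on the plus strand, the third at chr14:20929151-20929200 on the plus strand and the last at chr11:120348556-120348605 on the minus strand.
Srf: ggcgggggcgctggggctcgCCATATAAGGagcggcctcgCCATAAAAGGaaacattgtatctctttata
Myl9: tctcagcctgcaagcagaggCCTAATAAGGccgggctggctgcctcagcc
Vcl: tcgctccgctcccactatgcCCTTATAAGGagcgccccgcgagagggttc
Actg1: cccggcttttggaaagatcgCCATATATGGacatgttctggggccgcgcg
The difference was 0.06 for Srf (SE 0.11), 0.02 for Myl9 (SE 0.08), -0.07 for Vcl (SE 0.11) and -0.01 for Actg1 (SE 0.06). The other 3 genes with an exact box had -0.03 (Myl6, SE 0.07), -0.19 (Fhl1, SE 0.15) and 0.28 (Egr2, SE 0.26), and none of the 7 was called. A match of letters is a description of the window and not a binding site. Bases outside a window were not searched, so a window without a match does not show that a gene lacks a box.

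None of the 10 smooth muscle genes passed the test across all genes, in which limma called 0.795% of genes at a Benjamini-Hochberg adjusted p below 0.05 and 0.569% of them lower. The smallest adjusted p among the 10 was 0.102, for Cnn1. In 9 of the 10 the difference was negative, against 48.7% of all tested genes, with a median of -0.27 against 0.01 over all tested genes. An unadjusted p below 0.05 was reached on the lower side by 5 of the 10, namely Myh11, Acta2, Cnn1, Des and Myocd, against 5.79% of all tested genes. The genes were chosen with earlier results of these data known, so these counts describe them and do not test them. In whole lung, fewer smooth muscle cells and less RNA per cell cannot be told apart.

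**Figure D1:**
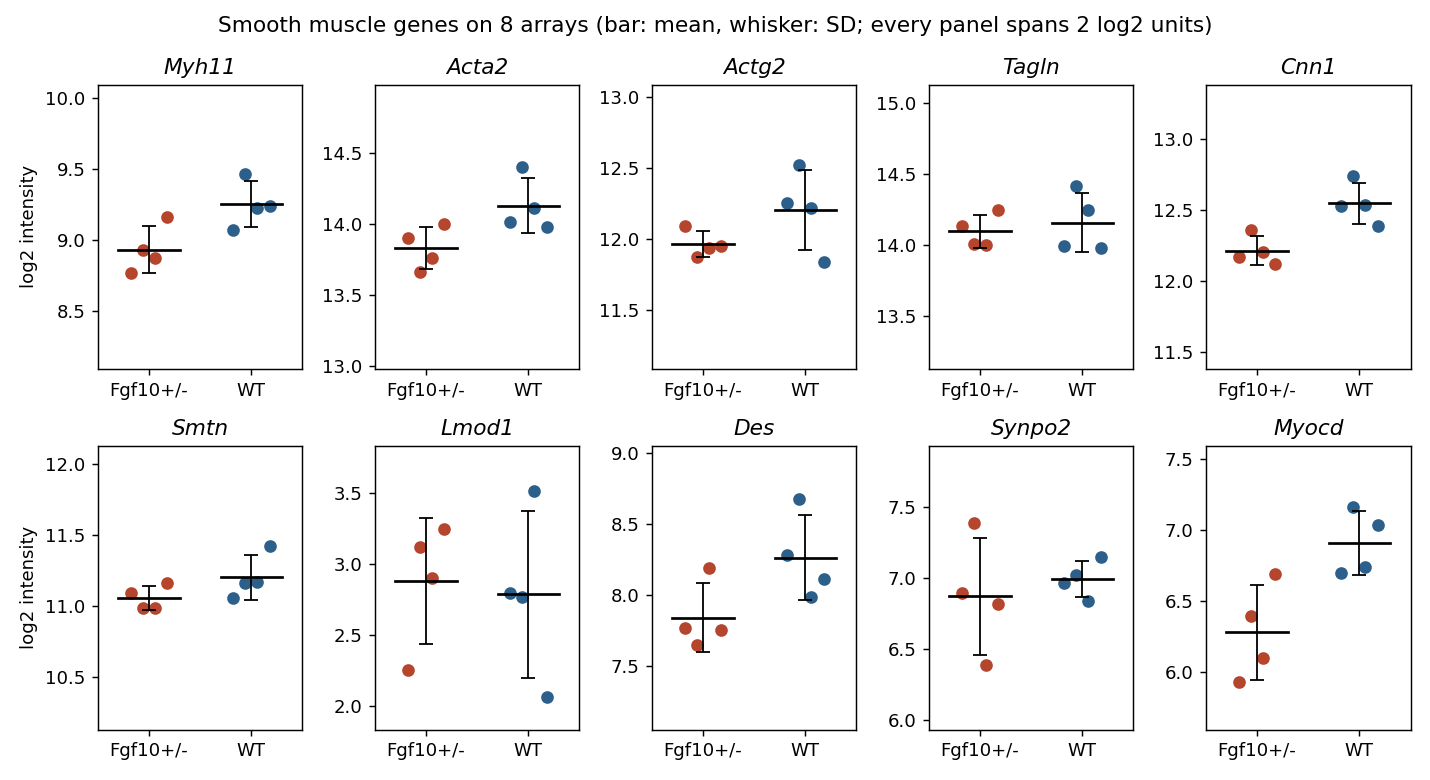
Log2 intensity (vertical axis, its own range in each panel but always 2 units tall) of the 10 genes on the 4 arrays labelled Fgf10+/- (red) and the 4 wild-type arrays (blue), with mean and SD. The groups do not overlap for Cnn1 and Myocd and overlap for the other 8 genes.

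Among the filament proteins, Myh11 encodes the smooth muscle myosin heavy chain, the marker most restricted to this cell type. Its values were 8.76, 8.93, 8.87 and 9.16 in arrays labelled Fgf10+/-, against 9.07, 9.46, 9.22 and 9.24 in wild-type arrays. Array 4 of the Fgf10+/- group lay above wild-type array 1, and all other Fgf10+/- arrays lay below every wild-type array. The difference was -0.32 (95% CI -0.58 to -0.06, limma adjusted p = 0.321), which is 19.8% lower.

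Acta2, the smooth muscle alpha-actin, read 13.898, 13.661, 13.761 and 13.998 in arrays labelled Fgf10+/-, against 14.012, 14.402, 14.114 and 13.976 in wild-type arrays. The groups overlapped by 1 array on each side, with array 4 labelled Fgf10+/- above wild-type array 4. The difference was -0.30 (95% CI -0.51 to -0.08, limma adjusted p = 0.249). The gene had 10 features, and all 10 gave a negative difference, between -0.34 and -0.26. These features read the same RNA extracts and are not replicates.

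Actg2, the gamma-actin of visceral smooth muscle, read 12.09, 11.87, 11.94 and 11.95 in arrays labelled Fgf10+/-, against 12.25, 12.52, 12.22 and 11.83 in wild-type arrays. Wild-type array 4 was the lowest of all 8 arrays, while the other 3 wild-type arrays lay above every Fgf10+/- array. The difference was -0.24 (95% CI -0.50 to 0.01, limma adjusted p = 0.474), and -0.37 without wild-type array 4. Without wild-type array 2 it was -0.14. The actin genes are close relatives and no probe sequences were used, so signal shared between Actg2 and Acta2 was not tested.

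Among the thin filament proteins, calponin 1 (Cnn1), which binds actin and restrains the myosin ATPase, lay apart in both groups. It read 12.17, 12.36, 12.20 and 12.12 in arrays labelled Fgf10+/-, against 12.53, 12.74, 12.54 and 12.39 in wild-type arrays. The highest Fgf10+/- array lay just below the lowest wild-type array. The difference was -0.34 (SE 0.09, 95% CI -0.52 to -0.15, limma adjusted p = 0.102), which is 20.8% lower. Cnn1 and Myocd were the 2 of the 10 genes whose groups did not overlap with the Fgf10+/- arrays lower, against 3.51% of all tested genes (6.64% in either direction).

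Transgelin (Tagln, also called SM22-alpha), an actin-binding protein and a standard smooth muscle marker, had the negative difference closest to 0. It read 14.134, 14.007, 14.006 and 14.252 in arrays labelled Fgf10+/-, against 13.996, 14.418, 14.247 and 13.983 in wild-type arrays. The groups overlapped: wild-type arrays 1 and 4 were the lowest of the 8, and wild-type array 2 was the highest. The difference was -0.06 (95% CI -0.27 to 0.15, limma adjusted p = 0.875), and without wild-type array 2 it was 0.02. The interval leaves room for a difference as large as that of Actg2. It leaves out the -0.30 of Acta2 but overlaps the Acta2 interval of -0.51 to -0.08. Separate intervals of genes read on the same arrays cannot say whether the genes differ. Their ratio within each array is given further on, without a test.

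Smoothelin (Smtn), a protein of contractile smooth muscle, read 11.09, 10.98, 10.99 and 11.16 in arrays labelled Fgf10+/-, against 11.05, 11.16, 11.17 and 11.42 in wild-type arrays. The groups overlapped, with wild-type array 1 below 2 Fgf10+/- arrays and wild-type array 4 the highest of the 8. The difference was -0.15 (95% CI -0.34 to 0.05, limma adjusted p = 0.593). Without wild-type array 4 it was -0.07, and its second, dimmer feature gave -0.08.

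Leiomodin 1 (Lmod1), which nucleates actin filaments, read close to the filter level. Its single feature averaged 2.83 over the 8 arrays, against a filter level of 2.76, and it was the 1 gene of the 10 with a positive value. It read 2.25, 3.12, 2.90 and 3.25 in arrays labelled Fgf10+/-, against 2.80, 2.77, 3.51 and 2.06 in wild-type arrays. The 95% CI of its difference of 0.10 ran from -0.80 to 0.99. The deposited values hold no background level, so whether this feature lay above background is unknown.

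Among the proteins that anchor the filaments, desmin (Des) forms the intermediate filaments of all muscle. It read 7.77, 7.65, 8.20 and 7.76 in arrays labelled Fgf10+/-, against 8.28, 8.68, 7.99 and 8.12 in wild-type arrays. Array 3 labelled Fgf10+/- lay above wild-type arrays 3 and 4, and the other 3 Fgf10+/- arrays lay below every wild-type array. The difference was -0.42 (95% CI -0.79 to -0.05, limma adjusted p = 0.362). All 10 of its features gave negative differences, but these ran from -0.50 to -0.09, a wider range than that of the 10 Acta2 features. The order of the arrays given above holds for the feature used. On every other Des feature wild-type array 1 was the lowest wild-type array. As the mean over its features Des had a difference of -0.32 (SE 0.16, limma adjusted p = 0.506).

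Synaptopodin 2 (Synpo2), a Z-disc and dense body protein, read 6.89, 7.39, 6.38 and 6.82 in arrays labelled Fgf10+/-, against 6.96, 7.02, 6.84 and 7.15 in wild-type arrays. Arrays 2 and 3 labelled Fgf10+/- were the highest and the lowest of the 8, so the groups overlapped fully. The difference was -0.12 (95% CI -0.57 to 0.32, limma adjusted p = 0.881), and without array 3 labelled Fgf10+/- it was 0.04. Its 2 dimmer features, with means of 3.27 and 2.91, gave -1.18 and -0.50, so the 3 features agreed in sign but not in size.

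Myocd, the cofactor of Srf, had the most negative difference of the 10. It read 5.93, 6.40, 6.10 and 6.69 in arrays labelled Fgf10+/-, against 6.70, 7.16, 6.74 and 7.04 in wild-type arrays. The groups did not overlap, although array 4 labelled Fgf10+/- and wild-type array 1 nearly met. The difference was -0.63 (SE 0.21, 95% CI -1.08 to -0.18, limma adjusted p = 0.247), which is 35.3% lower. The difference lay between -0.77 and -0.51 with each array left out in turn.

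**Figure D2:**
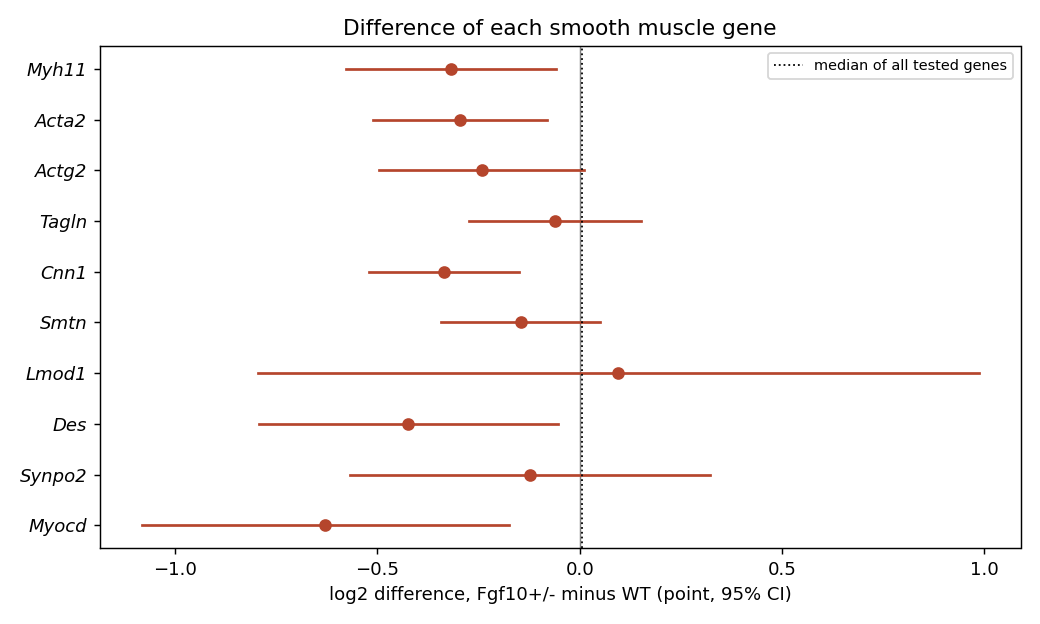
Log2 difference, arrays labelled Fgf10+/- minus wild-type arrays (horizontal axis), of each gene with its 95% confidence interval from limma (4 arrays per group), and the median of all tested genes as a dotted line. The intervals of Myh11, Acta2, Cnn1, Des and Myocd lie below 0, that of Actg2 ends at 0.01, and that of Lmod1 is the widest.

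**Figure D3:**
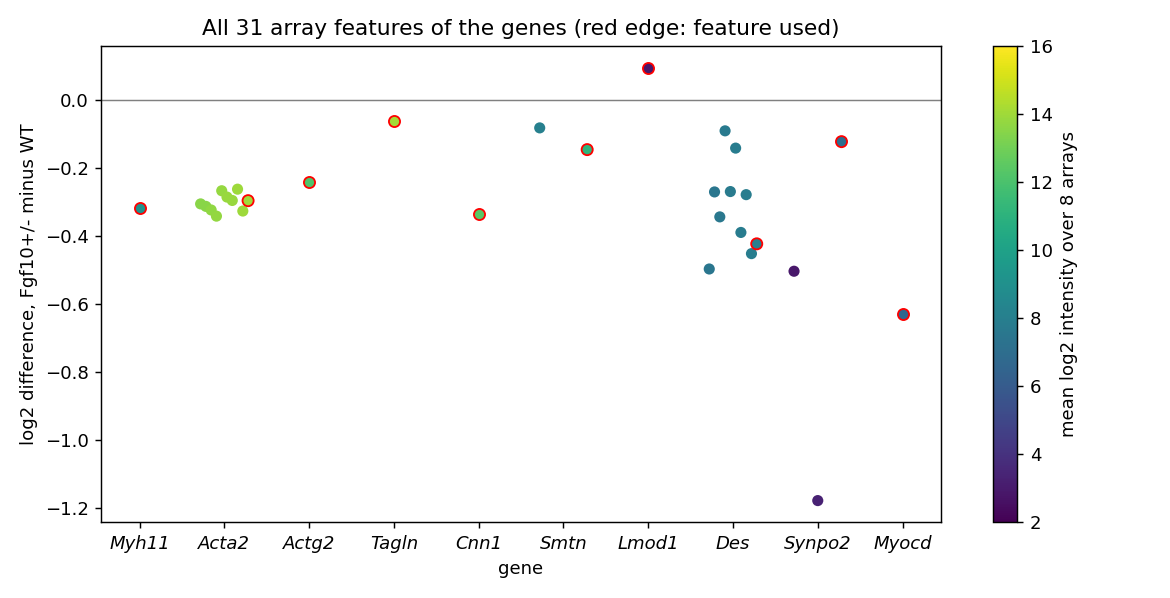
Log2 difference (vertical axis) of each of the 31 features of the 10 genes, coloured by mean log2 intensity, with the feature used for each gene edged in red. Of the 31 features 30 lie below 0, the 10 features of Acta2 lie close together, and the dim features of Synpo2 lie far from its bright one.

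The arrays differed among themselves in these genes. Wild-type array 2 was the highest of the 8 arrays for 7 genes, namely Acta2, Tagln, Myh11, Cnn1, Des, Actg2 and Myocd, with a mean deviation of 0.31 over the 10 genes. Wild-type array 4 was the lowest wild-type array for 5 genes, Acta2, Tagln, Cnn1, Actg2 and Lmod1, but the highest for Smtn and Synpo2. Among arrays labelled Fgf10+/-, array 4 was the highest for 6 genes, and its mean deviation over the 10 genes was -0.0047, beside 0.001 in wild-type array 4. The mean deviation was -0.22, -0.08 and -0.19 in the other arrays labelled Fgf10+/-, against 0.05 and 0.14 in wild-type arrays 1 and 3.

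Wild-type array 2 also had the highest mean level of 3 related lists: myosin regulation, thin filament and anchoring, and the non-muscle cytoskeleton, and it had the lowest of lung epithelium. The median difference of the 10 genes was -0.18 without this array, against -0.27 with it. Its part in the result beyond that value was not tested.

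**Figure D4:**
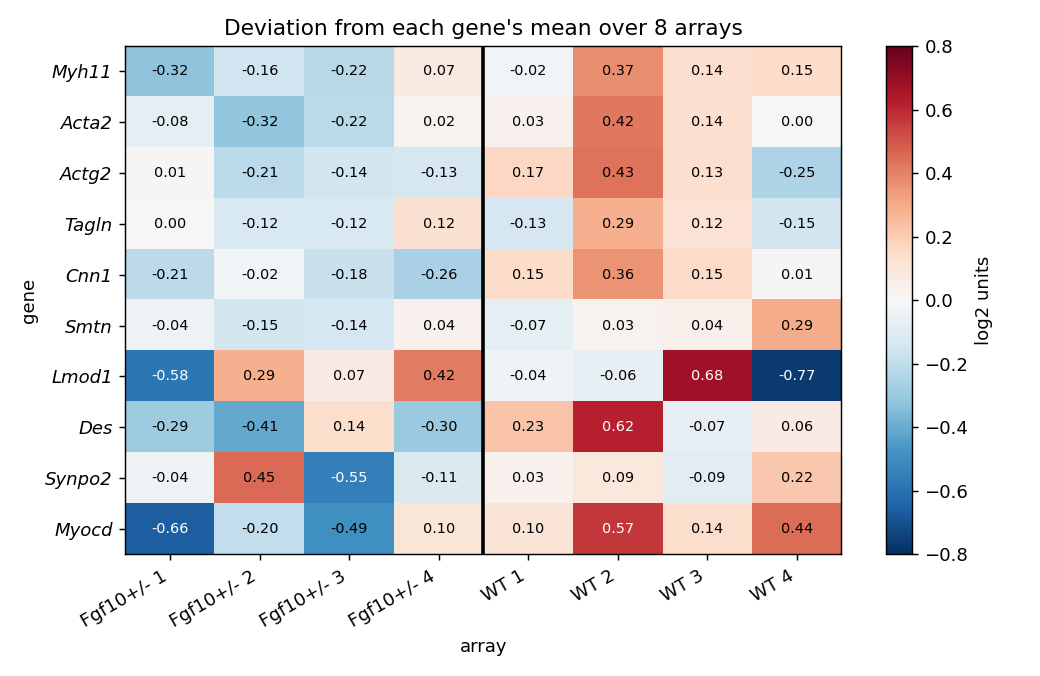
Deviation of each gene (rows) on each array (columns, arrays labelled Fgf10+/- left of the line and wild-type arrays right of it) from that gene's mean over 8 arrays, in log2 units. Wild-type array 2 is high for 7 genes, and the values of Lmod1 and Synpo2 do not follow those of the other genes.

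Acta2 and Tagln can also be set against each other within an array. After centring on its mean over the 8 arrays, the log2 ratio of Acta2 to Tagln was -0.08, -0.19, -0.09 and -0.10 in arrays labelled Fgf10+/-, against 0.17, 0.14, 0.02 and 0.15 in wild-type arrays. The groups did not overlap, and their means differed by -0.24. Of the 9 pairs with Tagln 3 lay apart in this way (Acta2, Myh11 and Myocd), against 3.96% of all other tested genes set over Tagln. Over all 45 pairs of the 10 genes 4 lay apart, the remaining one being Myocd with Smtn. The pairs share genes and were looked at after the values were seen, so they are given without a test.

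No other measured gene of the contractile pathway was called. Of 9 measured genes that regulate myosin none was called (median 0.02, with 4 negative values). The cGMP-dependent protein kinase Prkg1, which relaxes smooth muscle, had a difference of -0.49 (SE 0.17), the myosin phosphatase inhibitor Ppp1r14a 0.19 (SE 0.09) and the small GTPase Rhoa -0.09 (SE 0.07). The myosin light chain kinase Mylk, which starts contraction, had -0.17 (SE 0.15) and the regulatory light chain Myl9 0.02 (SE 0.08). The 95% CI of Myl9, -0.16 to 0.20, leaves out the median of the 10 genes, but that median has a spread of its own and the difference was not tested.

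Among 16 measured genes of the thin filament and its anchoring none was called, and 11 had negative values (median -0.06). An unadjusted p below 0.05 was reached on the lower side by 3 of them, Cald1, Pdlim7 and Actn1, against 5.79% of all tested genes. Caldesmon (Cald1), which binds actin and myosin, had a difference of -0.48 (SE 0.15, limma adjusted p = 0.213). A pair of related PDZ-LIM proteins of actin filaments had opposite signs, with Pdlim3 at 0.55 (SE 0.13, limma adjusted p = 0.0673) and Pdlim7 at -0.34 (SE 0.09, limma adjusted p = 0.121). Neither gene's groups overlapped, as in 6.64% of all tested genes in either direction. Both were named because they were among the 3 genes of this list with the smallest p.

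Of 8 measured calcium channels, pumps and receptors none was called (median 0.03). The calcium channel Cacna1c had a difference of -0.70 (SE 0.50), phospholamban (Pln) -0.26 (SE 0.32) and the potassium channel Kcnma1 0.22 (SE 0.29). These errors were larger than those of Myh11, Acta2 and Actg2, and Cacna1c averaged 2.76 in arrays labelled Fgf10+/-, at the filter level. The difference of Cacna1c rests on wild-type array 4, which read 5.11. The other wild-type arrays read 2.64 to 3.11, and arrays labelled Fgf10+/- read 2.46 to 3.09.

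Transcriptional regulators other than Myocd were not called either, at 0 of 9 (median 0.06, with 7 positive values). Srf read 10.27, 10.25, 10.03 and 9.83 in arrays labelled Fgf10+/-, against 10.06, 10.11, 9.85 and 10.11 in wild-type arrays, with full overlap. The Srf cofactors Mrtfa and Mrtfb had differences of -0.03 (SE 0.11) and 0.01 (SE 0.08). The muscle transcription factor Mef2c had 0.57 (SE 0.28), Tead1 0.17 (SE 0.09) and Gata6 0.16 (SE 0.11).

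Srf also serves immediate early genes, which answer growth signals through cofactors other than myocardin. Of 7 measured ones 0 were called and 6 had positive values (median 0.28), with Egr1 at 0.95 (SE 0.29, limma adjusted p = 0.181), Junb at 0.71 (SE 0.31) and Fos at 0.40 (SE 0.24). Their mean level was highest in array 3 labelled Fgf10+/-. The difference between these genes and the muscle genes was not tested. None of 9 non-muscle cytoskeletal genes was called (median -0.01, with 7 negative values), with the non-muscle myosins Myh10 at -0.29 (SE 0.13) and Myh9 at -0.09 (SE 0.07) and the tropomyosin Tpm4 at 0.21 (SE 0.21). That median is the value of Actg1, which read near the top of the scale.

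**Figure D5:**
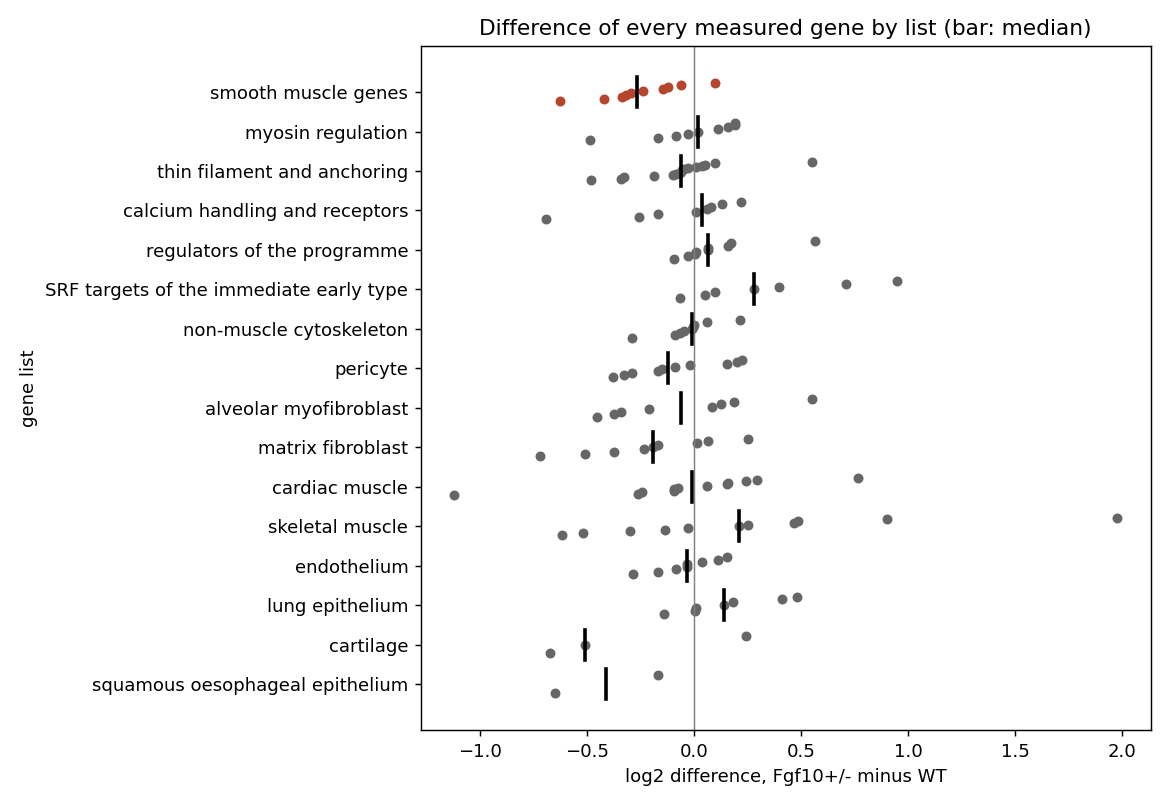
Log2 difference, arrays labelled Fgf10+/- minus wild-type arrays (horizontal axis), of every measured gene in each list (rows), with the list's median as a bar. The smooth muscle genes have a median of -0.27 and 1 value above 0, while the medians of the myosin, thin filament, calcium and regulator lists lie between -0.06 and 0.06.

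Markers of other cells that share these genes were looked at beside them, and their part in the result was not tested. Pericytes, the mural cells of capillaries, had 0 of 10 markers called (median -0.12, with 7 negative values), with Trpc6 at -0.29 (SE 0.13), Higd1b at -0.15 (SE 0.08) and Lamc3 at -0.38 (SE 0.27). Their mean log2 level ranged from 8.69 to 8.72 in arrays labelled Fgf10+/- and from 8.57 to 8.93 in wild-type arrays. Of 8 markers of alveolar myofibroblasts 1 was called, Enpp2, which encodes autotaxin and was higher by 0.55 (SE 0.10, adjusted p = 0.0192 by limma), while Aspn had -0.34 (SE 0.11) and P2ry14 -0.38 (SE 0.13). Enpp2 was not called without the variance trend (adjusted p = 0.173), and kept its call in 4 of 8 fits with 1 array left out, losing it without arrays 1 or 2 labelled Fgf10+/- and without wild-type arrays 2 or 4. The median of the 8 was -0.06, with 4 negative values, and the lowest difference was -0.46. An unadjusted p below 0.05 was reached on the lower side by 3 of the 8, against 5.79% of all tested genes. The groups of P2ry14 did not overlap, with arrays labelled Fgf10+/- lower, as in 3.51% of all tested genes. The mean level of the list ranged from 10.13 to 10.24 in arrays labelled Fgf10+/- and from 10.14 to 10.39 in wild-type arrays.

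Matrix fibroblast markers had 0 of 9 called and a median of -0.19, the closest to that of the smooth muscle genes among lists with at least 4 measured genes. Of the 9 values 6 were negative and 3 positive, the highest at 0.25. The 3 with the smallest p were all negative. Decorin (Dcn) had a difference of -0.72 (SE 0.16, limma adjusted p = 0.0553), Col14a1 -0.38 (SE 0.12) and Col1a2 -0.23 (SE 0.12). Their mean level ranged from 10.30 to 10.75 in arrays labelled Fgf10+/- and from 10.42 to 10.97 in wild-type arrays, highest in wild-type array 4.

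Heart muscle bears at least on Des and Myocd. Of 12 cardiac markers Myh7 was called, having risen by 0.76 (SE 0.12, limma adjusted p = 0.01), and 11 were not, among them Tnnt2 at -0.26 (SE 0.13), Actc1 at 0.24 (SE 0.16) and Myh6 at -0.08 (SE 0.20). Myh7 was not called without the variance trend (adjusted p = 0.173) and kept its call with each array left out. The cardiac median was -0.01, and the mean level ranged from 9.53 to 9.64 in arrays labelled Fgf10+/- and from 8.99 to 10.35 in wild-type arrays, with the highest in wild-type array 4. Without Nppa, the atrial natriuretic peptide gene, which read 11.25 in that array and 4.55 to 6.25 in the others, the wild-type range was 9.37 to 10.27, against 9.89 to 10.05 in arrays labelled Fgf10+/-. Without wild-type array 4 Des had a difference of -0.47 and Myocd -0.59. Synpo2 and Smtn, for which that array was the highest wild-type array, both had -0.07 without it. With it they had -0.12 and -0.15. The median of the 10 genes was -0.33 without that array and -0.27 with it. The part of heart muscle in these values was not tested. Of 13 skeletal muscle markers 11 were measured and 0 called, with Myh2 at 1.98 (SE 0.48, limma adjusted p = 0.0905), Ckm at -0.62 (SE 0.37) and Tnnc2 at 0.90 (SE 0.60). Their mean level ranged from 4.40 to 5.25 in arrays labelled Fgf10+/- and from 4.34 to 4.76 in wild-type arrays. Myh2 read 1.80 to 2.60 in wild-type arrays, all below the filter level of 2.76, and 3.02 to 5.46 in arrays labelled Fgf10+/-. The size of the Myh2 difference is therefore uncertain, since dim wild-type readings set it.

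The tissue label fitted its markers. The surfactant gene Sftpc read near the top of the scale, 15.99, in all 8 arrays, so no difference can be read from it. In the lung epithelium list Abca3, a lipid transporter of type 2 cells, rose by 0.48 (SE 0.08, adjusted p = 0.0151 by limma), and the other 6 genes did not pass, Nkx2-1 having 0.41 (SE 0.09, limma adjusted p = 0.0692) and Sftpb 0.14 (SE 0.09). Abca3 was not called without the variance trend (adjusted p = 0.201), nor without wild-type array 2 or array 2 labelled Fgf10+/-. Of the 7 genes 6 had positive values (median 0.14), the opposite sign to the smooth muscle genes. Sftpc, at 0.001 (SE 0.06), is counted among these 6 although no difference can be read from it. The mean level of the list ranged from 13.22 to 13.24 in arrays labelled Fgf10+/- and from 13.03 to 13.16 in wild-type arrays, with no overlap, and its part in the smooth muscle values was not tested. None of 8 endothelial genes was called (median -0.04), with Pecam1 at -0.29 (SE 0.15), Emcn at -0.17 (SE 0.12) and Egfl7 at 0.11 (SE 0.09). Of 7 cartilage markers Acan, Col9a1, Matn1 and Matn3 lay below the filter level, and so did Krt4 and Krt6a of 4 markers of squamous oesophageal epithelium. Of the rest Comp had -0.68 (SE 0.42), Col2a1 -0.51 (SE 0.40), Cnmd 0.24 (SE 0.48), Krt13 -0.65 (SE 0.62) and Krt5 -0.17 (SE 0.41), and 0 were called. Fgf10 itself read 7.81 to 8.28 in arrays labelled Fgf10+/- and 7.53 to 8.16 in wild-type arrays, a difference of 0.23 (95% CI -0.12 to 0.59). It was not lower in arrays labelled Fgf10+/-, so its level does not bear out the labels, on which every direction here rests. Only the brightest of its 10 features was read. The allele is not given and no probe sequences were used, so this value cannot decide on the labels either way.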

How the data were processed

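Whole lungs were measured on 8 arrays, 4 per group, grouped by the sample titles. The deposited table holds log2 intensities of 62976 features, and limma is the 1 tool in the submitters' processing notes. The columns share nearly 1 distribution, so no normalization was added. The sources used here do not give the background correction. Features with a missing value (189) were left out. Symbols came from the platform annotation, and 2933 were updated by accession through RefSeq (GRCm38.p6), where 29036 of 31465 named features matched. Features averaging below the 30th percentile (2.76) were removed, and the brightest feature stood for each of 17234 genes. The test was limma 3.58.1 in R 4.3.3 (lmFit, eBayes with a variance trend), two-sided, Benjamini-Hochberg adjusted over all genes, called below 0.05, and it was tested on simulated data. The number of arrays limits the precision.

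Members and lists were chosen with earlier results of these data known. Named genes are the 10, the 3 of each list with the smallest p, called list genes, the 5 genes most alike over arrays, and 7 defining markers. Others (Vcl, Actg1, Mrtfa, Mrtfb, Myl6, Fhl1, Egr2, Actn1, Tgfb1i1, Nppa, Fgf10, Kcnj8, Tnnt3, Cldn5, Dpt and list genes below the filter) were named after their values were seen. Alternatives were other normalizations, filters, feature choices and variance models, a replicate block and each array left out. Same-numbered arrays had correlations of deviations between -0.064 and 0.067, so the numbers were not taken as pairs.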

Additional observations from a re-analysis of the deposited data

Results flagged for a closer look

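Of 160 sets of 4 arrays examined, 7 had 1 array set off from the other 3 by more than Dixon's 95% critical value, and chance sets off about 1 in 20. None of them was among the 10 smooth muscle genes. Rhoa read 11.86 in array 4 labelled Fgf10+/-, against 12.03 to 12.05 in the others of that group, and Emcn read 8.65 in array 1 of that group, against 8.95 to 8.99. The mean level of the myosin regulation list was 10.39 in array 2 labelled Fgf10+/-, against 10.54 to 10.56, and that of the transcriptional regulators was 10.37 in array 1, against 10.18 to 10.21. Wild-type array 4 was set off in Sftpb at 15.06, with the rest of its group at 14.57 to 14.64, in Krt13 at 5.53, against 2.49 to 2.62, and in the mean level of lung epithelium at 13.16, against 13.03 to 13.05.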

How the results depend on the processing

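Under 17 alternatives none of the 10 genes passed, the smallest adjusted p being 0.0557 for Cnn1 with array weights. Some alternatives could not change the sign of a single gene. The other filters, the fit without the variance trend and the replicate block left each difference as it was. The other normalizations acted on columns that already shared nearly 1 distribution. Of 169 values of single genes, these included, 163 kept their sign. The 6 that did not were Lmod1 at -0.025 with array weights, -0.028 without array 4 labelled Fgf10+/- and -0.15 without wild-type array 4, Synpo2 at 0.039 without array 3 labelled Fgf10+/- and 0.029 without that array and wild-type array 1 together (a choice made after seeing the data), and Tagln at 0.024 without wild-type array 2. With 1 array left out these genes ranged from -0.15 to 0.34 (Lmod1), from -0.295 to 0.039 (Synpo2) and from -0.12 to 0.024 (Tagln). The cause was not tested. The median of the 10 genes lay between -0.33 and -0.18 with 1 array left out and between -0.31 and -0.27 otherwise. Lmod1 has no value under the filter at the 50th percentile. Synpo2 had -0.60 as the mean over its features. Of all tested genes 137 were called, 1 without the variance trend, and between 34 (without wild-type array 2) and 173 (without wild-type array 1) with 1 array left out. The replicate block gave 116 called genes, 0 of the 10 and a median of -0.27, and 3 of 8 arrays correlated best with their own number. Dim features limit Lmod1 most, since the table holds no background level.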

Other observations

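The 5 genes outside the 10 that varied most like their mean within the groups were Htr2c, Mrpl58, Cr1l, Sstr2 and Mutyh (Pearson r between 0.958 and 0.987 over 8 arrays after subtracting each group's mean, given as a description). The noisy Lmod1 and Synpo2 weigh on that mean. Htr2c and Sstr2 were dim, averaging 2.72 and 3.68 in arrays labelled Fgf10+/- and 3.42 and 4.06 in wild-type arrays. Among the contractile lists the nearest were the phospholamban gene Pln at 0.719, Myl9 at 0.698 and Tgfb1i1 at 0.643, while the transcriptional regulators had a median of -0.317. Such values were not particular to contractile genes. The pericyte marker Kcnj8 had 0.797, the skeletal marker Tnnt3 0.672, the endothelial marker Cldn5 0.656 and the matrix fibroblast marker Dpt 0.645.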
